A study of Mus musculus with 27 samples.

Results

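The ventricle of mouse pups carrying an MBNL1 gain-of-function transgene (Tg) was compared with the ventricle of control pups (Ctl) at postnatal day 7 (P7). The comparison was defined by the labels, with earlier results of these data known. It holds 7 of the 27 libraries of the series, 4 labelled Tg and 3 labelled Ctl, all from P7 heart ventricle. The Tg group is described in the labels only as MBNL1 gain of function and the Ctl group only as control, and the promoter of the transgene, the cells that express it, strain, sex and whether each library came from a separate animal are not given in the sources used here. If libraries of a group came from the same animals, the p-values would measure technical spread only. The wider series asks how the amount of MBNL1 bears on the maturation of the heart after birth, and its Ctl ventricles at P60 (7 libraries, labelled as controls of a knockout at 7 or 14 days) and at P1 (4 libraries) were used here to place the Tg genes on the normal course from birth to adulthood.

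MBNL1 (muscleblind-like 1) is an RNA-binding protein that sets alternative splicing, polyadenylation and the localisation and stability of messenger RNAs, and its activity in heart and skeletal muscle grows as the muscle matures. CELF1 is its best known antagonist in the postnatal heart. In the first week after birth mouse cardiomyocytes make their last divisions, leave the cell cycle and turn from glucose toward fatty acids as fuel, while fetal forms of contractile proteins and channels give way to adult ones. In adult disease, overload and injury of the heart raise a further programme, with the natriuretic peptides Nppa and Nppb as its standard markers.

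Each library held between 24167321 and 24817135 gene counts. The first principal component took 50.32% of the variance and set the Tg libraries (scores of -27.0 to -19.8) apart from the Ctl libraries (29.8 to 31.5). Of 15893 genes that passed the low-count filter, 4878 were called at an adjusted p under 0.05 by edgeR's quasi-likelihood test with Benjamini-Hochberg adjustment, or 30.7%. They divided into 2371 genes higher in Tg (14.9%) and 2507 lower in Tg (15.8%). Most differences were small, with a median absolute log2 fold change of 0.38 among the called genes and 71.7% of calls under 1.5-fold. A difference of at least 2-fold was reached by 535 called genes (3.37%), of which 297 were higher in Tg (1.87% of all tested) and 238 lower (1.5%). The CPM of the groups did not overlap in 18.0% of all genes tested with Tg the higher and in 19.4% with Tg the lower. Among the 4878 called genes the groups did not overlap in 4584, so that a called gene seldom overlaps. In a further fit all 27 libraries, with adult KO and Ctl ventricles included, shared a single estimate of the spread. There 973 of 17261 genes tested were called in this same contrast, 511 higher in Tg and 462 lower. List counts given below for the fit of all 27 libraries are to be read beside these totals and not beside the 14.9% and 15.8% above. List counts of the fit of the P7 libraries alone are to be read beside that 14.9% called higher and 15.8% called lower. Of the 168 called genes named in the text, 76 were not called in that fit. Female and male libraries, by their sex-linked transcripts, were present in both groups.

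Mbnl1 itself, the gene the transgene carries and the basis of the label, rose in every Tg library. Its level in CPM (counts per 1000000 counts of the library, after TMM scaling) was 4079, 2934, 3432 and 3506 in the Tg libraries, against 105, 96.9 and 97.7 in the Ctl libraries, a log2 fold change of 5.13 ± 0.10 (SE, edgeR adjusted p = 2.73e-12). The groups were far apart, and the Tg level also exceeded the 154 ± 8.42 CPM of P60 Ctl ventricle (SD, n = 7) and the 72.9 ± 7.82 CPM of P1 Ctl ventricle (SD, n = 4). Counts from the transgene and from the native gene, at chr3:60472830-60629750 on the plus strand of GRCm38, cannot be told apart in these values. Per kilobase of annotated exon, Mbnl1 stood at 186 ± 25.1 CPM in Tg and 5.33 ± 0.226 CPM in Ctl, while its paralog Mbnl2 stood at 11.5 ± 0.409 CPM in Tg and 12.4 ± 0.409 CPM in Ctl (SD, n = 4 and 3). On this per-length scale Mbnl2 was the more abundant paralog in Ctl ventricle and Mbnl1 in Tg ventricle. The scale divides by all annotated exon bases (18717 for Mbnl1 and 11993 for Mbnl2). The length of the transcripts expressed, from the transgene or the native genes, was not measured, and the ranking depends on it.

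The other MBNL and CELF genes differed far less than Mbnl1. Mbnl2 had a log2 fold change of -0.10 ± 0.05 and was not called (adjusted p = 0.151). Mbnl3, a paralog of low level, fell to 0.943, 1.502, 1.11 and 1.10 CPM in Tg, against 2.63, 1.41 and 2.63 CPM in Ctl, a log2 fold change of -0.93 ± 0.24 (edgeR adjusted p = 0.0104). Its groups overlapped, and the call was lost without Ctl library 1 (-0.79) or Ctl library 3 (-0.79). Celf1 fell by 0.19 on the log2 scale, with 124 to 141 CPM in Tg and 148 to 152 CPM in Ctl. Celf2, whose protein also counters MBNL1 on some exons, rose by 0.32 ± 0.05 (SE), with 75.0 to 80.9 CPM in Tg and 60.5 to 64.9 CPM in Ctl. Celf5 was called higher at 0.82 ± 0.28 with levels at or under 1.32 CPM in every library, and that call was lost without any one of 5 of the 7 libraries. Celf3 and Celf4 were not called, and Celf6 was below the count filter.

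Tmprss11d, a membrane serine protease known from airway epithelium, was the gene that differed most between the groups. It held 34274, 30515, 31192 and 34341 counts in the Tg libraries, against 2, 2 and 1 counts in the Ctl libraries. Summed over each group and taken per total counts without TMM scaling, these stood at a ratio of 19667 (95% counting interval 8427 to 60571, which covers counting error only). The gene lies at chr5:86302217-86373420 on the minus strand of GRCm38. Its neighbours did not share that level, with 5, 2, 1 and 2 counts of Tmprss11a and 4, 2, 1 and 1 counts of Tmprss11e in Tg, against 0 counts of each in every Ctl library. As with Mbnl1, no Ctl library came near the level of a Tg library.

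Ranked among called genes that averaged 5 CPM or more, did not overlap between the groups and had an informative symbol, the largest rises after Tmprss11d and Mbnl1 brought together secreted stress signals, muscle genes and epithelial genes. Some of these genes also rise in Ctl ventricle from P1 to P60 and others fall, as given below. Gdf15, a circulating hormone of cellular stress, stood at 16.2, 17.6, 26.0 and 13.3 CPM in Tg, against 1.79, 1.62 and 1.96 CPM in Ctl (log2 fold change 3.35 ± 0.22, SE). Cdnf, a relative of the endoplasmic reticulum protein Manf, stood at 28.9, 28.0, 26.1 and 28.8 CPM in Tg, against 3.61, 3.68 and 3.93 CPM in Ctl (2.90 ± 0.08). Within each group the Cdnf values lay close together. Xirp2, an actin-binding protein of the intercalated disc, stood at 397, 331, 635 and 422 CPM in Tg, against 81.3, 86.3 and 73.9 CPM in Ctl (2.47 ± 0.17). Nmrk2, the muscle kinase that makes NAD from nicotinamide riboside, stood at 70.2, 47.0, 81.2 and 80.4 CPM in Tg, against 11.8, 12.96 and 13.9 CPM in Ctl (2.44 ± 0.16). Abra, an actin-binding protein of striated muscle, stood at 53.2, 30.1, 34.5 and 31.7 CPM in Tg, against 6.87, 7.46 and 6.88 CPM in Ctl (2.40 ± 0.18). All of these genes separated the 7 libraries without overlap, as the ranking required. Ccn2, the matricellular connective tissue growth factor, rose by 2.23 ± 0.15, and Ephx1, the microsomal epoxide hydrolase, by 2.003 ± 0.10. Slc9a3, a sodium-proton exchanger of epithelia, rose by 2.24 ± 0.17. Krt18 and Krt8, the keratin pair of simple epithelia, rose by 2.31 ± 0.31 and 2.12 ± 0.23, while the epithelial keratin Krt19 did not pass the test (-0.15 ± 0.24) and the epithelial genes Epcam, Cdh1 and Krt5 were below the count filter. The 10 markers of epithelium and thymus, of which 3 were at 0 in all 7 libraries, summed to 18.8 to 49.0 CPM in Tg and 5.89 to 8.35 CPM in Ctl, nearly all of it from Krt18 and Krt8. The other 8 markers summed to 0.751 to 1.27 CPM in Tg and 1.05 to 1.44 CPM in Ctl. Mrnip (2.79 ± 0.18) overlaps the more abundant Sqstm1 on the opposite strand. Nmrk2 overlaps Atcayos, which averaged 31.8 CPM in Tg and 67.2 CPM in Ctl. Without stranded counts the reads of such a pair cannot be assigned with certainty. Genes named below with such an overlap include Ncapg (with the more abundant Lcorl), Mest (with Copg2) and Erbb2 (with Mien1).

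**Figure D1:**
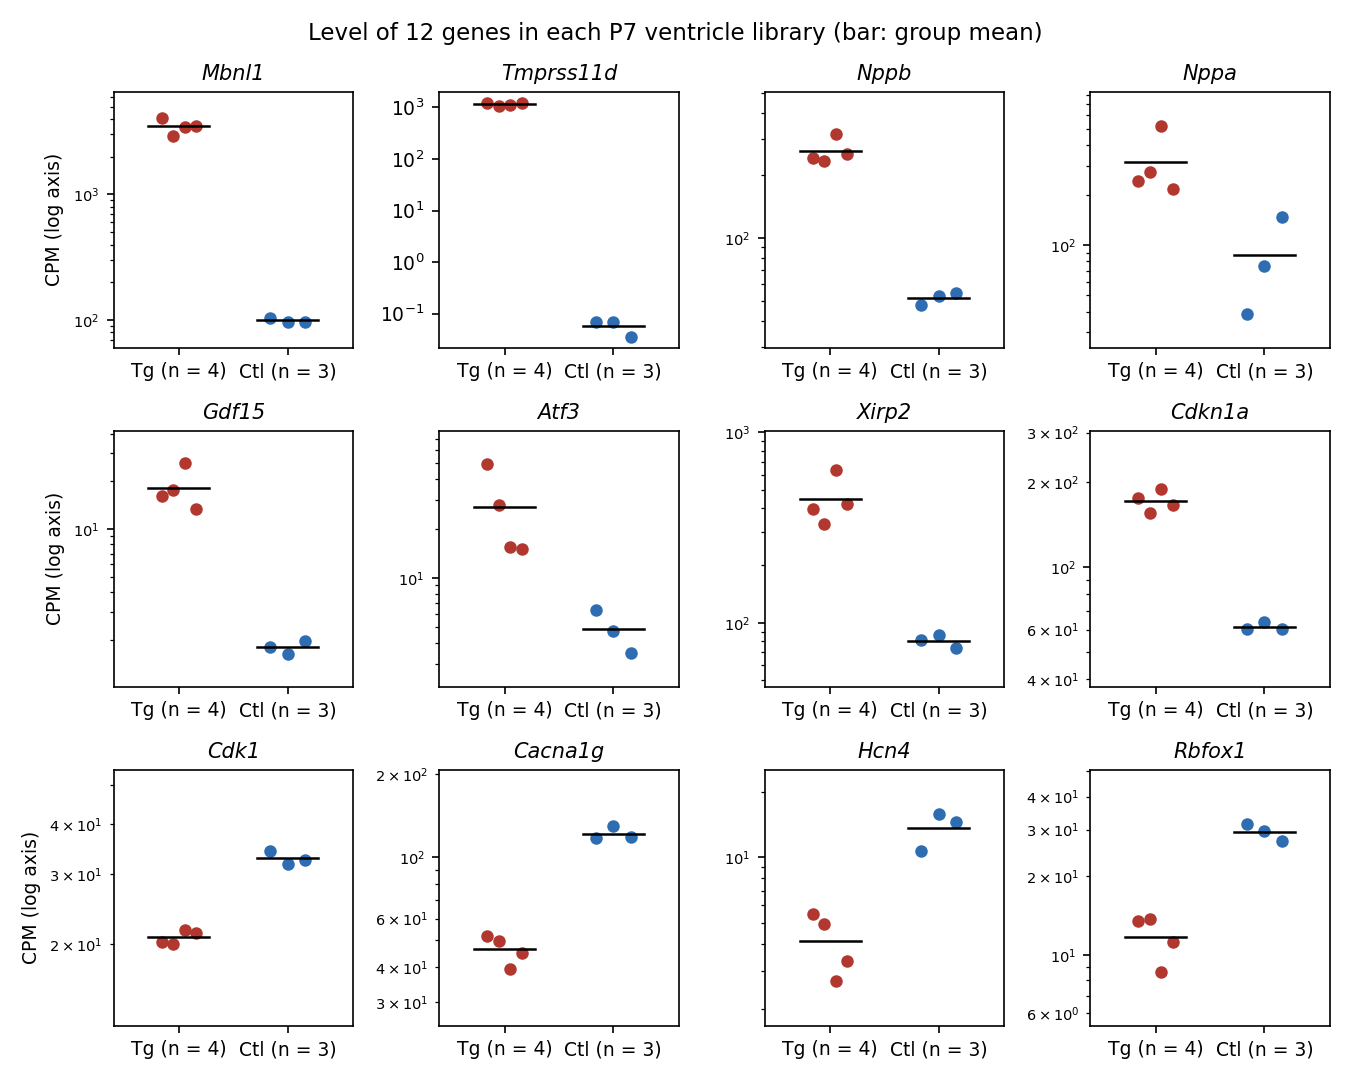
Level in CPM on a log axis for 12 genes, with each point a library, Tg (n = 4) left of Ctl (n = 3), and the bar the group mean. Mbnl1 stands at 2934 to 4079 CPM in Tg and 96.9 to 105 CPM in Ctl, and none of the 12 genes overlaps between the groups.

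Most genes of the cardiac stress and hypertrophy list rose. Of 28 tested members 22 were called higher in Tg and 1 lower, against 14.9% and 15.8% of all genes tested, and their median log2 fold change was 1.09 beside -0.0016 over all genes. In the fit of all 27 libraries 12 members were called higher and 0 lower. Nppb, the B-type natriuretic peptide, stood at 243, 236, 315 and 255 CPM in Tg, against 47.4, 52.6 and 54.1 CPM in Ctl (log2 fold change 2.35 ± 0.10, SE). Nppa, the atrial natriuretic peptide, stood at 244, 277, 518 and 216 CPM in Tg, against 38.9, 74.8 and 148 CPM in Ctl (1.85 ± 0.38). Both groups were separate for each peptide, but Nppa varied widely among the Ctl libraries and its log2 fold change was 2.47 without Ctl library 3.

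Markers of atrial cardiomyocytes varied from library to library within both groups and are given here beside Nppa. The atrial myosin light chains Myl7 and Myl4 were low in Tg libraries 3 and 4 and in Ctl library 1 and higher in the remaining libraries, with Myl7 at 65.2, 98.6, 22.0 and 21.8 CPM in Tg and 30.1, 140 and 138 CPM in Ctl. The summed level of the 8 atrial markers, Nppa included, was 356 to 633 CPM in Tg and 181 to 619 CPM in Ctl. Nppa was highest in Tg library 3, which had little Myl7, and was lowest in Ctl library 1, which had little Myl7 as well. The part of atrial content in the Nppa value was not tested.

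Other members of the stress list rose to differing degrees. Ankrd1, a titin-associated repeat protein, stood at 1523, 1700.0, 2153 and 1739.6 CPM in Tg, against 806, 927 and 731 CPM in Ctl (log2 fold change 1.12 ± 0.10, SE). Acta1, the skeletal form of alpha-actin, stood at 289, 189, 529 and 298 CPM in Tg, against 222, 137 and 149 CPM in Ctl (0.95 ± 0.26). Acta1 overlapped between the groups and was not called without Ctl library 2 (0.81) or Ctl library 3 (0.86). Mybpc2, a fast skeletal myosin-binding protein, rose by 1.66 ± 0.12, Ankrd23 by 1.41 ± 0.11 and the calcineurin regulator Rcan1 by 1.01 ± 0.08. Timp1, an inhibitor of metalloproteinases, was the member called lower (-0.51 ± 0.11). The remaining 5 tested members did not pass the test, and Sprr1a and Fgf21 were below the count filter.

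Promoter windows of the 250 bases before a RefSeq start are shown for Nppb and Gdf15, 2 members with the largest rises whose windows hold the motif GGAATG (MCAT, the element of the TEAD factors, 1 of 7 motifs searched) on either strand, printed in capitals. The sequences are from RefSeq on GRCm38.p6, at chr4:147985650-147985899 on the plus strand for Nppb and chr8:70632096-70632345 on the minus strand for Gdf15. The RefSeq and GENCODE starts differ, so that 112 of the 250 bases of the Nppb window lie past the GENCODE start at base 147985788, and the Gdf15 window, at 1 of 2 RefSeq starts, lies wholly inside the GENCODE gene, whose first base is 70632456. The motif was found in 8 of the 24 stress-list members with a window (33.3%) and in 13.2% of the 11540 tested genes with a window, and a match of letters is a description and not a site shown to be bound.
Nppb: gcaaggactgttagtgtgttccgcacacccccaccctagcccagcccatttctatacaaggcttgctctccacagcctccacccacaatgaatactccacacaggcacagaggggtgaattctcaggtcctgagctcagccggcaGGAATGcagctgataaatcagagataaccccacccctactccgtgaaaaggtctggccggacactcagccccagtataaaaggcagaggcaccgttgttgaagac
Gdf15: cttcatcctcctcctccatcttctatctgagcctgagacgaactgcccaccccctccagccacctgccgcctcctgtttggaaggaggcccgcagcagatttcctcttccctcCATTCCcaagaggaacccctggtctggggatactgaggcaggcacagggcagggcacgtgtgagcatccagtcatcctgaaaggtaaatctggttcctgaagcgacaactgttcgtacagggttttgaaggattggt

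Genes of the integrated stress response, in which ATF4 turns on amino acid synthesis and transport when translation is curbed, were called higher in Tg or not called. Of 28 tested members 18 were called higher and 0 lower, against 14.9% and 15.8% of all genes tested. Their median log2 fold change was 0.30, and 6 were called higher in the fit of all 27 libraries. Atf3, a stress-induced transcription factor, stood at 49.2, 27.8, 15.5 and 15.1 CPM in Tg, against 6.34, 4.74 and 3.47 CPM in Ctl (2.47 ± 0.39, SE). Chac1, a glutathione-degrading enzyme, stood at 4.79, 4.37, 4.83 and 5.12 CPM in Tg, against 1.05, 0.825 and 0.877 CPM in Ctl (2.38 ± 0.15). Both genes were higher in each Tg library than in any Ctl library, and Atf3 was spread more widely among the Tg libraries. The factors Cebpb (1.38 ± 0.13), Atf5 (1.06 ± 0.07), Atf4 (0.66 ± 0.06) and Ddit3 (0.47 ± 0.07) rose as well. The enzymes Mthfd2 (0.69 ± 0.15) and Pycr1 (0.68 ± 0.09), of mitochondrial folate and proline synthesis, rose, while Asns (0.18 ± 0.13) and Phgdh (-0.13 ± 0.12), of asparagine and serine synthesis, were not called.

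The windows of Atf3, Chac1 and Pycr1 are given because each holds TGATGNAA, the composite element read by ATF4 with its C/EBP partners, on either strand and in capitals. The element was found in 8 of 24 members of the list with a window (33.3%) and in 2.41% of the 11540 tested genes with a window. The windows lie at chr1:191183334-191183583 on the minus strand for Atf3, chr2:119350992-119351241 on the plus strand for Chac1 and chr11:120643749-120643998 on the minus strand for Pycr1 (GRCm38.p6, RefSeq). The Atf3 window lies wholly inside the GENCODE gene, and the Chac1 and Pycr1 windows run 13 and 21 bases past the GENCODE start.
Atf3: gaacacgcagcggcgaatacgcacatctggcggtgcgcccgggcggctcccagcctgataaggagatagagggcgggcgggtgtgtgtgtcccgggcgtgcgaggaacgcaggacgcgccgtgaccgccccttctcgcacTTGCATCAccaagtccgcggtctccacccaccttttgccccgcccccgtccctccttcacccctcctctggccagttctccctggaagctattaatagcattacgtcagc
Chac1: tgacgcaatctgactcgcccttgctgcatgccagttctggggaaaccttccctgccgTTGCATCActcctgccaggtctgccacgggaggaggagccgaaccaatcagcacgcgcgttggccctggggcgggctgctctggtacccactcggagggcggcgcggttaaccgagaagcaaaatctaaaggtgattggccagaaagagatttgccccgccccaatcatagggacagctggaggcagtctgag
Pycr1: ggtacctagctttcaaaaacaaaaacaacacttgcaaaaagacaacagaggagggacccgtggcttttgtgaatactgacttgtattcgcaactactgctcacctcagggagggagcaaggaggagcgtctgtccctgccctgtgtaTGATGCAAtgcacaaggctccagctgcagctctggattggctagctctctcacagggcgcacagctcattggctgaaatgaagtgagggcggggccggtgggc

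Protein-folding genes of the endoplasmic reticulum and the cytosol were called higher or not called. Of 23 tested endoplasmic reticulum chaperone and sensor genes 15 were called higher and 0 lower (median 0.32), and 6 were called higher in the fit of all 27 libraries. Hspa5, the main chaperone of that compartment, stood at 474, 418, 469 and 494 CPM in Tg, against 274, 302 and 284 CPM in Ctl (0.70 ± 0.06, SE). The groups were separate and the Ctl values lay within a narrow band. Sdf2l1 rose by 0.49 ± 0.10, whereas the calcium-binding chaperone Calr was not called (0.05 ± 0.06). Of 27 tested heat shock genes 14 were called higher and 0 lower (median 0.24), and 4 were called higher in the fit of all 27 libraries. They were led by the small heat shock protein Hspb8 (0.73 ± 0.07) and the co-chaperones Dnajb5 (0.72 ± 0.07) and Dnaja4 (0.70 ± 0.07), the last of which overlaps Wdr61 on the opposite strand.

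Immediate early genes, the transcription factors and phosphatases that cells switch on within minutes of a stimulus, were higher in Tg. Of 25 tested 22 were called higher and 0 lower, with a median log2 fold change of 0.69, and 6 were called higher in the fit of all 27 libraries. Egr1 stood at 35.9, 36.0, 68.0 and 48.6 CPM in Tg, against 15.3, 18.5 and 21.5 CPM in Ctl (1.36 ± 0.20, SE). Egr2 stood at 2.36, 1.85, 3.68 and 2.86 CPM in Tg, against 0.421, 0.791 and 0.702 CPM in Ctl (2.07 ± 0.28). The Tg values exceeded all Ctl values for both genes. Nr4a1 (1.40 ± 0.11), Fosl2 (1.06 ± 0.07), Jun (0.68 ± 0.08) and Myc (0.65 ± 0.12) rose too.

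Targets of p53 were called higher or not called, while Trp53 itself was not called. Of 23 tested 14 were called higher and 0 lower (median 0.31), and 5 were called higher in the fit of all 27 libraries. Cdkn1a, the inhibitor p21 of cyclin-dependent kinases, stood at 176, 155, 190 and 166 CPM in Tg, against 60.2, 63.7 and 60.3 CPM in Ctl (1.48 ± 0.07, SE). Btg2, an antiproliferative p53 target that is also an immediate early gene, stood at 125, 94.1, 101 and 75.2 CPM in Tg, against 30.9, 29.5 and 30.6 CPM in Ctl (1.70 ± 0.13). Neither gene overlapped between the groups. Eda2r rose by 0.91 ± 0.11, Phlda3 by 0.86 ± 0.08, Zmat3 by 0.83 ± 0.07 and Mdm2 by 0.33 ± 0.05. Trp53 stood at 67.2 to 75.7 CPM in Tg and 69.5 to 73.8 CPM in Ctl (0.01 ± 0.05, not called).

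**Figure D2:**
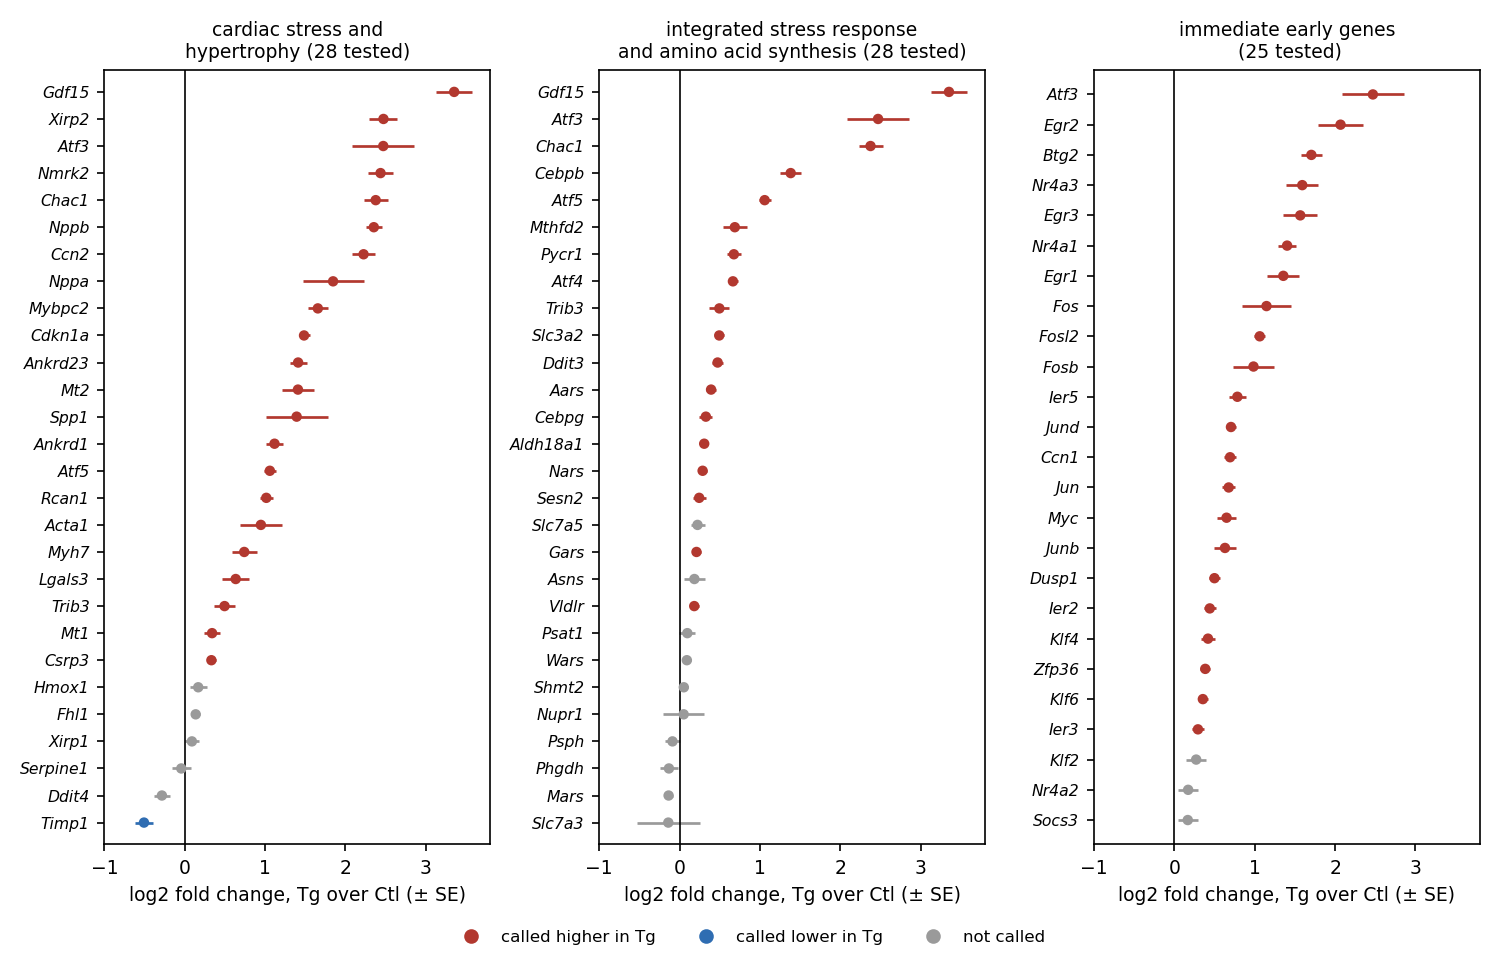
Log2 fold change of Tg over Ctl with its standard error for each tested member of the stress and hypertrophy list, the integrated stress response list and the immediate early list, from edgeR (4 Tg and 3 Ctl libraries). Red members were called higher in Tg (22 of 28, 18 of 28 and 22 of 25), blue members lower and grey members were not called. Gdf15, in the stress and integrated stress response lists, and Atf3, in every list drawn, lead. The lists share members, so their counts are not independent.

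Cell division genes were lower in Tg as a group. Of 50 tested mitosis genes 0 were called higher and 49 lower, against 14.9% and 15.8% of all genes, with a median log2 fold change of -0.55 and a range of -0.74 to -0.06. In the fit of all 27 libraries, whose spread includes ventricles of other ages and of KO mice, the median was -0.55 as well and edgeR called 0 of 50, with 4 at an unadjusted p under 0.05. Cdk1, the kinase that drives entry into mitosis, stood at 20.2, 19.97, 21.7 and 21.3 CPM in Tg, against 34.2, 31.8 and 32.5 CPM in Ctl (-0.66 ± 0.05, SE). Mki67, a chromosome-coating protein used to mark cycling cells, stood at 76.2, 68.8, 59.3 and 77.4 CPM in Tg, against 96.9, 106 and 109 CPM in Ctl (-0.56 ± 0.08). Both markers, named here after their values were seen, were lower in each Tg library than in any Ctl library. Ncapg, a condensin subunit, stood at 5.22, 4.68, 5.29 and 6.01 CPM in Tg, against 8.31, 9.56 and 8.81 CPM in Ctl (-0.74 ± 0.10). The mitotic kinesins Kif22 (-0.68 ± 0.09) and Kif11 (-0.68 ± 0.10) fell by a like amount. The checkpoint gene Bub3, which also has roles outside mitosis, was the exception at -0.06 ± 0.04. The libraries are from whole tissue, so fewer cycling cells and less of these transcripts per cell cannot be told apart, and which cell types carried the fall was not measured.

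Promoter windows of Ncapg, Kif22 and Kif11, the 3 mitosis genes with the largest falls, are shown because each holds the cell cycle homology region TTTGAA together with a CCAAT box, the pair of elements known from promoters of late cell cycle genes, on either strand and in capitals. TTTGAA was found in 16 of 42 mitosis genes with a window (38.1%) and in 12.99% of the 11540 tested genes, CCAAT in 31 of 42 (73.8%) and in 39.9%, and both in 14 of 42 (33.3%) and in 5.92%. The windows lie at chr5:45669675-45669924 on the plus strand for Ncapg, chr7:127042421-127042670 on the minus strand for Kif22 and chr19:37376132-37376381 on the plus strand for Kif11 (GRCm38.p6, RefSeq), and the Ncapg and Kif22 windows run 6 and 51 bases past the GENCODE start.
Ncapg: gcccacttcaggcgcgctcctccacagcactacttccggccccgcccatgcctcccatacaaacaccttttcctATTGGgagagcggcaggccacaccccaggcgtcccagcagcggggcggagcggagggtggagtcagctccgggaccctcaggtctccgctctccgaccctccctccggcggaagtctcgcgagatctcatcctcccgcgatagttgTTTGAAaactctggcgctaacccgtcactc
Kif22: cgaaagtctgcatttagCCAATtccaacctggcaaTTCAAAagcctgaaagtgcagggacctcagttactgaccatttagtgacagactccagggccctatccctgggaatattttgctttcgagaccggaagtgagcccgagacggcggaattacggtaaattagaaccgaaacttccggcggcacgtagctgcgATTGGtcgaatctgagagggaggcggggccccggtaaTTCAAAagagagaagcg
Kif11: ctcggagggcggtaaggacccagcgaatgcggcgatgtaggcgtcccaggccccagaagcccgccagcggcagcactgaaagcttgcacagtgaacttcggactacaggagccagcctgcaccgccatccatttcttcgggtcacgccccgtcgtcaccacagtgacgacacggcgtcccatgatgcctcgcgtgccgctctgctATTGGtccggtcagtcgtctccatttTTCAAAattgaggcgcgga

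DNA replication genes were lower in Tg too. Of 47 tested 0 were called higher and 33 lower, with a median log2 fold change of -0.29, and 0 were called in the fit of all 27 libraries. The cell cycle transcription factor E2f2 (-0.65 ± 0.11, SE), the G1/S cyclin Ccne1 (-0.62 ± 0.10) and thymidylate synthase Tyms (-0.55 ± 0.08) had the largest falls. The list of G1 cyclins, inhibitors of cyclin-dependent kinases and other cell cycle regulators was mixed. Of 22 tested 5 were called higher (22.7%, against 14.9% of all genes) and 8 lower (36.4%, against 15.8%). In the fit of all 27 libraries these counts were 1 and 3. Next to Cdkn1a, the cyclin Ccnd2 (0.49 ± 0.07) and the retinoblastoma gene Rb1 (0.46) rose. E2f8 (-0.76 ± 0.07), the kinase Wee1 (-0.60 ± 0.05), Cdk2 (-0.53 ± 0.05) and the inhibitor Cdkn1b (-0.41 ± 0.05) fell, so that the inhibitors of cyclin-dependent kinases did not move in a common direction.

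**Figure D3:**
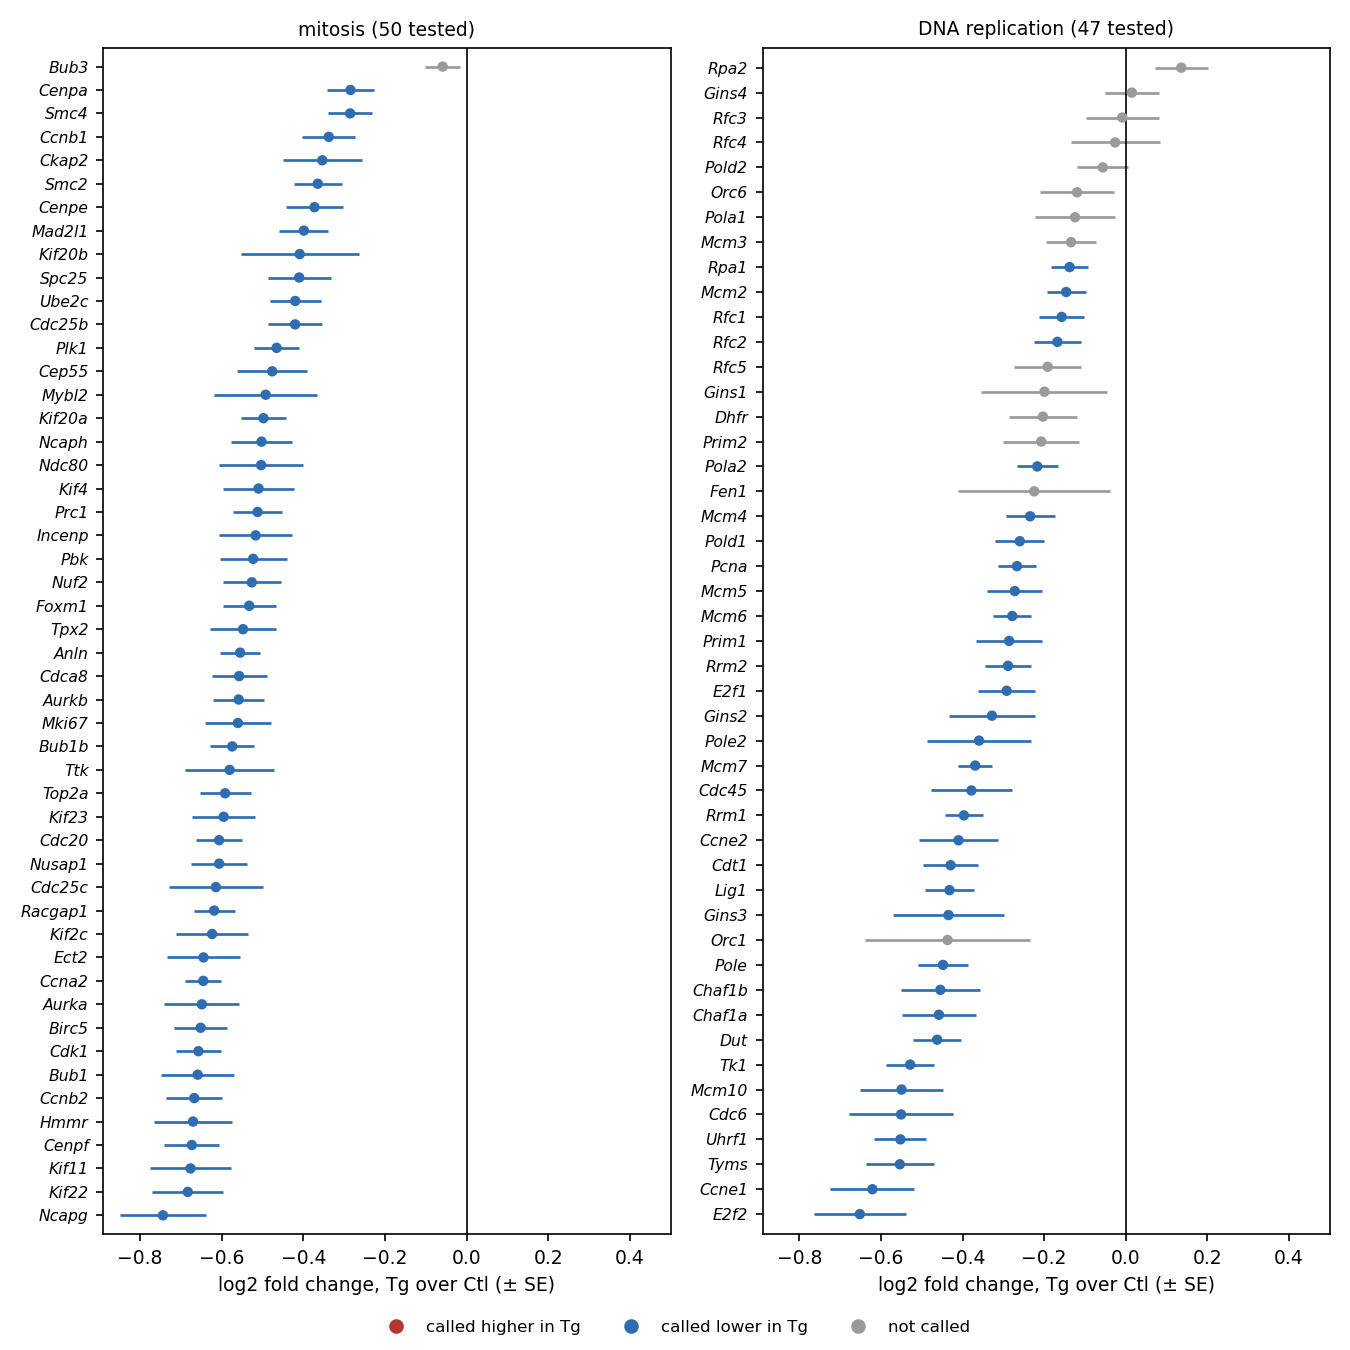
Log2 fold change of Tg over Ctl with its standard error for 50 mitosis genes on the left and 47 DNA replication genes on the right, from edgeR (4 Tg and 3 Ctl libraries). Blue members were called lower in Tg (49 and 33) and grey members were not called, and the mitosis genes lie between -0.74 and -0.06.

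Signals that act on cardiomyocyte growth moved singly. Nrg1, the neuregulin ligand of the ERBB receptors, stood at 4.39, 4.47, 3.18 and 2.90 CPM in Tg, against 0.736, 1.13 and 1.09 CPM in Ctl (log2 fold change 1.92 ± 0.22, SE). Its coreceptor Erbb2 stood at 26.6, 26.9, 26.4 and 24.9 CPM in Tg, against 43.3, 43.9 and 39.5 CPM in Ctl (-0.69 ± 0.05). Ligand and coreceptor differed in opposite directions, each without overlap between the groups. Of 26 tested growth factor genes 3 were called higher and 4 lower, shares near those of all genes. Of 19 Hippo and YAP genes 4 were called higher (21.1%, near the 14.9% of all genes) and 1 lower. That was 2 and 0 in the fit of all 27 libraries, 3 in all without Ctl library 3 and 7 and 1 with TMM scaling without mitochondrial genes or with a mean of at least 5 CPM. The members called higher included the targets Ccn2, Ankrd1 and Ccn1 (0.69 ± 0.08).

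Genes of the cardiac action potential were mostly lower in Tg. Of 30 tested ion channel and connexin genes 2 were called higher and 16 lower, with a median log2 fold change of -0.43, and 1 was called higher and 8 lower in the fit of all 27 libraries. Hcn4, the pacemaker channel, stood at 5.48, 4.92, 2.68 and 3.32 CPM in Tg, against 10.7, 15.8 and 14.6 CPM in Ctl (-1.74 ± 0.20, SE), and averaged 16.6 CPM in P60 Ctl and 21.04 CPM in P1 Ctl ventricle. Cacna1g, a T-type calcium channel of the fetal heart, stood at 52.1, 49.8, 39.4 and 45.0 CPM in Tg, against 117, 129 and 119 CPM in Ctl (-1.38 ± 0.08). Both channels were separate between the groups. Channels of the adult ventricle fell as well, with Kcnj2, of the inward rectifier current, at 13.1, 18.9, 16.2 and 19.1 CPM in Tg, against 38.5, 37.8 and 34.6 CPM in Ctl (-1.13 ± 0.10). Kcnd2, of the transient outward current, stood at 2.14, 3.49, 3.22 and 4.24 CPM in Tg, against 8.73, 7.87 and 6.88 CPM in Ctl (-1.25 ± 0.17). The channels called lower held those of the fetal and of the adult heart. Hcn4, Gja5 and other channels are also expressed in atrium or conduction tissue, whose markers varied between libraries as given above.

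Calcium-handling genes were lower more often than higher. Of 28 tested 5 were called higher and 13 lower (median -0.20), and 0 were called in the fit of all 27 libraries. Atp2a2, the calcium pump of the sarcoplasmic reticulum, stood at 4935, 5446, 4713 and 5339.5 CPM in Tg, against 7235, 6422 and 6266 CPM in Ctl (-0.38 ± 0.06, SE). Its inhibitor phospholamban, Pln, stood at 829, 870, 804 and 828 CPM in Tg, against 657, 644 and 642 CPM in Ctl (0.37 ± 0.05). Pump and inhibitor moved in opposite directions and neither overlapped. The skeletal calsequestrin Casq1 rose by 0.93 ± 0.11, while Fkbp1b (-0.79 ± 0.19), the exchanger Slc8a1 (-0.42 ± 0.05) and the L-type channel Cacna1c (-0.44 ± 0.06) fell.

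Contractile genes showed no common direction, and the fetal and adult lists were each divided. Of 24 tested fetal cardiac genes 5 were called higher and 11 lower (median -0.30). The members called higher were Nppb, Nppa, Ankrd1, Acta1 and Myh7, and the members called lower included Hcn4, Cacna1g, Tnni1 and the growth genes Dlk1 (-0.73 ± 0.18, SE) and Igf2 (-0.53 ± 0.09). Of 35 tested adult cardiomyocyte genes 10 were called higher and 11 lower (median -0.01). In the fit of all 27 libraries 3 fetal genes were called higher and 3 lower, and 1 adult gene higher and 3 lower.

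Among the isoform pairs that switch after birth, named here after their values were seen, the troponin I and myosin heavy chain pairs differed. Tnni1, the fetal slow skeletal troponin I, stood at 445, 426, 332 and 385 CPM in Tg, against 885, 850 and 746 CPM in Ctl (-1.06 ± 0.09, SE). Its adult counterpart Tnni3 stood at 1993, 1694, 1632 and 2039 CPM in Tg and at 1685, 1789.7 and 1836 CPM in Ctl (0.06 ± 0.07, not called). The fetal troponin was lower in Tg without a called change in the adult form. Myh7, the fetal and stress-responsive slow myosin, stood at 409, 587, 414 and 348 CPM in Tg, against 258, 315 and 218 CPM in Ctl (0.74 ± 0.15). The adult myosin Myh6 stood at 14521 to 18654 CPM in Tg and 16418 to 19036 CPM in Ctl (-0.05 ± 0.07, not called). Here the fetal form was the higher in Tg. Per kilobase of exon Myh6 remained far above Myh7 in both groups, at 2521 ± 281 CPM against 51.0 ± 11.9 CPM in Tg and 2611 ± 199 CPM against 30.6 ± 5.65 CPM in Ctl.

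Of 36 tested sarcomere genes 13 were called higher and 12 lower, against 3 and 1 in the fit of all 27 libraries. The titin cap Tcap stood at 380, 334, 259 and 314 CPM in Tg, against 180, 194 and 176 CPM in Ctl (0.81 ± 0.10, SE). Lmod2, which lengthens thin filaments, stood at 358, 271, 255 and 264 CPM in Tg, against 122, 132 and 114 CPM in Ctl (1.23 ± 0.10). Both Z-disc and thin-filament genes were separate between the groups, and the intermediate filament Des rose by 0.75 ± 0.07. The tropomyosin Tpm1 (-0.38) and the myosin chaperone Unc45b (-0.30) were among the members called lower. Tubulins and their regulators were higher more often than lower, 12 against 4 of 23 tested (2 and 1 in the fit of all 27 libraries), led by Tuba8 (1.09 ± 0.12), Mapt (1.04 ± 0.09) and the neuronal form Tubb3 (0.95 ± 0.26, not called without Ctl library 1).

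Genes of mitochondrial fuel use were lower in Tg more often than higher. Of 36 tested genes of fatty acid uptake and oxidation 4 were called higher and 26 lower (median -0.30), against 0 and 3 in the fit of all 27 libraries. Acot1, a cytosolic acyl-CoA thioesterase, stood at 26.8, 27.7, 26.2 and 27.7 CPM in Tg, against 62.1, 68.5 and 53.1 CPM in Ctl (-1.17 ± 0.07, SE). Its groups did not overlap. The beta-oxidation thiolase Acaa2 fell by 0.63 on the log2 scale, Acsl3 by 1.01, Angptl4 by 0.91 and Ucp3 by 0.69. Pdk4, which restrains glucose oxidation, rose by 0.51 ± 0.08, and the nuclear receptor Ppara fell by 0.62.

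In the citric acid cycle and pyruvate oxidation 0 of 26 tested genes were called higher and 15 lower (median -0.16), against 0 and 4 in the fit of all 27 libraries, with Mdh2 (-0.43 ± 0.05, SE) the largest fall. Of 50 nuclear-encoded respiratory chain genes 2 were called higher and 19 lower (median -0.12), against 0 and 2 in the fit of all 27 libraries. The largest of these was Atp5o, of the ATP synthase, at -0.31 ± 0.06. Glycolysis and glycogen genes were divided, with 7 of 33 called higher and 13 lower (1 and 3 in the fit of all 27 libraries), and the fetal aldolase Aldoc at 0.943, 0.943, 1.07 and 1.38 CPM in Tg, against 3.50, 3.71 and 2.35 CPM in Ctl (-1.55 ± 0.20). The muscle creatine kinase Ckm fell by 0.39, while the mitochondrial creatine kinase Ckmt2 rose by 0.46 ± 0.06. Lpin1, a phosphatidate phosphatase and coactivator of PPAR signalling, stood at 129, 125, 132 and 134 CPM in Tg, against 70.5, 59.7 and 65.9 CPM in Ctl (0.99 ± 0.06), without overlap.

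Transcripts encoded by mitochondrial DNA made up 15.9% ± 0.334 of all counts in Tg (SD, n = 4) and 15.2% ± 0.360 in Ctl (SD, n = 3). The difference was 0.742 percentage points, and the two-sided exact permutation p, which doubles the smaller tail, was 0.114. The smallest p that this form of the test can give here is 0.0571, so that no difference could pass it at 0.05. Of the 13 genes 3 were called higher (23.1%, against 14.9% of all genes) and 1 lower (7.69%, against 15.8%). The count was 7 in all without Tg library 3, and 0 in the fit of all 27 libraries. Among the called genes mt-Nd2 (0.31 ± 0.04, SE) and mt-Nd4 (0.27 ± 0.04) rose. mt-Co2 was called lower (-2.86 ± 0.82), but this rested on Ctl library 2, which held 647 CPM where the 4 Tg libraries held 25.2 to 40.7 CPM and the other Ctl libraries 27.5 and 30.3 CPM. Without Ctl library 2 its log2 fold change was 0.16.

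**Figure D4:**
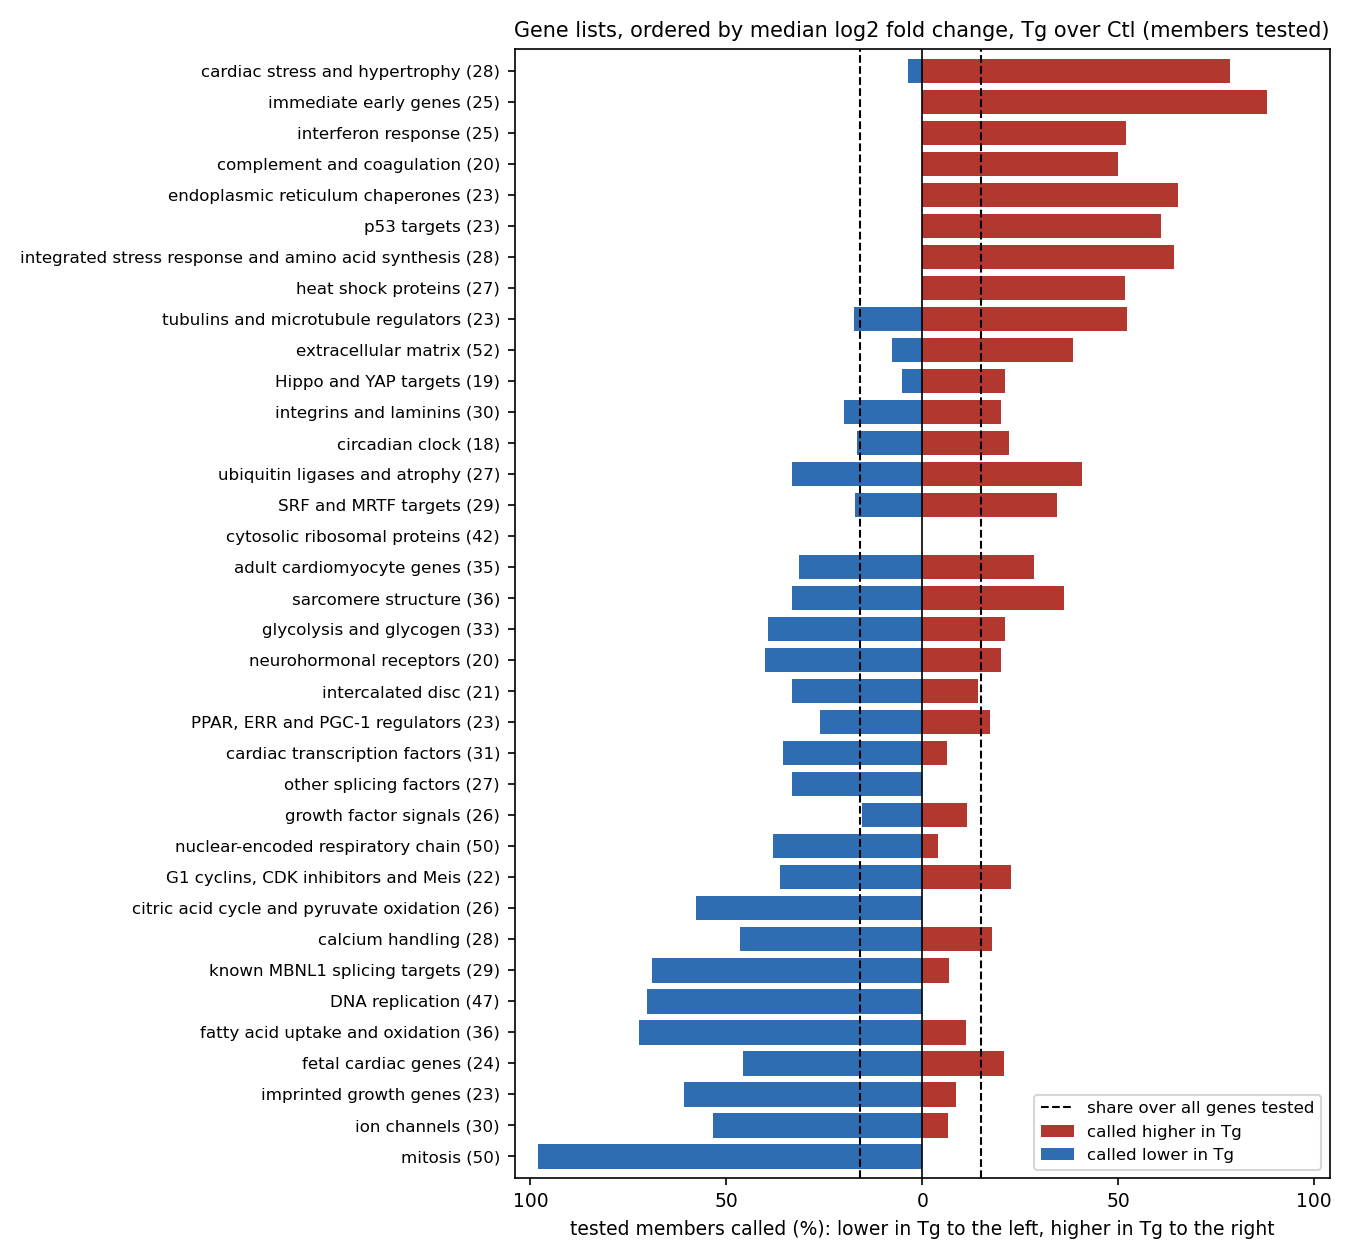
Percent of tested members called higher (red, to the right) or lower (blue, to the left) in Tg than in Ctl for 36 pathway lists with at least 18 tested members, ordered by median log2 fold change. The dashed lines mark 14.9% and 15.8%, the shares of all 15893 genes, and the lists run from stress and hypertrophy at the top to mitosis at the bottom.

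Genes whose splicing MBNL1 is known to control were mostly lower in summed expression. Of 29 tested 2 were called higher and 20 lower (median -0.26), against 0 and 3 in the fit of all 27 libraries. The chloride channel Clcn1 stood at 1.197, 1.08, 0.644 and 0.742 CPM in Tg, against 2.70, 2.34 and 2.67 CPM in Ctl (-1.48 ± 0.21, SE), and overlaps Fam131b on the opposite strand. The kinase Camk2d fell by 0.29, the membrane-shaping Bin1 by 0.28 and the Z-disc protein Ldb3 by 0.27, and dystrophin, Dmd, rose by 0.33 ± 0.06. Gene counts hold no exon usage, so splicing was not analysed here. Of 27 other splicing factors 0 were called higher and 9 lower (0 and 3 in the fit of all 27 libraries). Rbfox1 stood at 13.4, 13.7, 8.62 and 11.2 CPM in Tg, against 31.6, 29.5 and 27.2 CPM in Ctl (-1.32 ± 0.12), and was the factor with the largest fall. Rbpms2 (-0.42 ± 0.05) and Hnrnpl (-0.35 ± 0.05) followed.

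Cardiac transcription factors were lower more often than higher, 11 against 2 of 31 tested (6 and 0 in the fit of all 27 libraries). Hey2, a Notch-responsive repressor of the compact ventricular wall, stood at 8.38, 7.96, 8.26 and 9.05 CPM in Tg, against 22.2, 21.9 and 19.7 CPM in Ctl (-1.34 ± 0.07, SE). Irx3, a factor of the conduction system, stood at 46.4, 48.0, 39.4 and 45.4 CPM in Tg, against 109, 80.5 and 80.0 CPM in Ctl (-1.002 ± 0.10). Both were lower in every Tg library. Hand1 (-1.48 ± 0.31), Tbx5 (-0.69 ± 0.13) and Gata6 (-0.65 ± 0.06) fell too, while Nkx2-5, Gata4 and Mef2c had log2 fold changes of 0.10, 0.05 and 0.07 and were not called. Imprinted growth genes, which the mouse heart shuts down after birth, were called lower in 14 and higher in 2 of 23 tested (median -0.36), against 3 and 0 in the fit of all 27 libraries. The hydrolase gene Mest stood at 232, 218, 221 and 227 CPM in Tg, against 420, 380 and 387 CPM in Ctl (-0.82 ± 0.05).

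The largest falls by the ranking used above for rises held channels, receptors, transporters and matrix proteins. Aqp4, a water channel, stood at 4.28, 7.12, 3.11 and 6.93 CPM in Tg, against 22.5, 26.2 and 23.9 CPM in Ctl (-2.17 ± 0.19, SE). Lpar3, a receptor of lysophosphatidic acid, stood at 5.84, 5.27, 3.47 and 4.14 CPM in Tg, against 20.1, 19.05 and 22.5 CPM in Ctl (-2.13 ± 0.14). Cited1, a transcriptional coregulator, stood at 6.67, 5.97, 4.36 and 6.26 CPM in Tg, against 26.2, 22.3 and 21.4 CPM in Ctl (-1.999 ± 0.12). In all of these the highest Tg library lay below the lowest Ctl library, which the ranking required. The phosphatase inhibitor Ppp1r1a (-1.60 ± 0.16), the transporters Slc6a17 (-1.57 ± 0.13) and Slc17a7 (-1.52 ± 0.20), the tubulin carboxypeptidase Vash2 (-1.48 ± 0.08), the calcium channel subunit Cacna2d2 (-1.45 ± 0.27), the kinase Wnk2 (-1.44 ± 0.09), the ephrin Efnb3 (-1.41 ± 0.13), the matrix proteins Emilin2 (-1.40 ± 0.20) and Spock2 (-1.40 ± 0.13), and the alcohol dehydrogenase Adhfe1 (-1.40 ± 0.11) were among the others, next to Hcn4. Adhfe1 overlaps a more weakly counted gene on the opposite strand. Cacna2d2 stood at 4.57, 3.91, 2.29 and 1.70 CPM in Tg, against 5.78, 9.83 and 9.89 CPM in Ctl. Like the atrial marker Myl7, it was lower in Tg libraries 3 and 4 and in Ctl library 1 than in the remaining libraries of the same group. The part of atrial content in the Cacna2d2 value was not tested.

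Markers of the cell types of the ventricle were summed per library, which measures transcripts and not numbers of cells. The summed level of 12 ventricular cardiomyocyte markers was 53254 to 59453 CPM in Tg and 54492 to 55588 CPM in Ctl, so that these markers were abundant in all 7 libraries and their ranges overlapped. The 18 macrophage markers summed to 224 to 283 CPM in Tg and 139 to 169 CPM in Ctl, and 13 of 17 tested were called higher and 0 lower (median 0.79), 7 of them in the fit of all 27 libraries. Csf1r, the receptor for the macrophage growth factor, stood at 44.4, 40.1, 50.5 and 42.4 CPM in Tg, against 23.8, 25.0 and 28.2 CPM in Ctl (0.79 ± 0.08, SE). Csf1r was higher in each Tg library than in any Ctl library. The 14 fibroblast markers summed to 8086 to 9424 CPM in Tg and 6862 to 7794 CPM in Ctl, with 8 called higher and 1 lower (5 called in all without Ctl library 1 and 0 in the fit of all 27 libraries). The 12 markers of activated fibroblasts summed to 2162 to 2357 CPM in Tg and 2567 to 2686 CPM in Ctl. Of these 3 were called higher and 3 lower, with a median log2 fold change of 0.08. Among them the contractile actin Acta2 fell by 0.56, from a mean of 892 CPM in Ctl to 607 CPM in Tg. Acta2, also listed as a smooth muscle marker, made up most of the fall of the summed level. In the same list Cilp, a matrix protein of stressed heart, rose by 1.66 ± 0.22. The 20 endothelial markers summed to 3592 to 3734 CPM in Tg and 3423 to 3594 CPM in Ctl, and 4 of 7 tested erythroid markers were called lower (2 without Ctl library 1 or 2). The 10 adipocyte markers summed to 103 to 114 CPM in Tg and 152 to 179 CPM in Ctl, but without the fatty acid synthase gene Fasn the other 9 summed to 30.0 to 36.0 CPM in Tg and 28.1 to 39.5 CPM in Ctl. The 12 lymphocyte markers summed to 17.5 to 19.7 CPM in Tg and 10.6 to 13.9 CPM in Ctl.

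Matrix, complement and interferon genes were called higher more often than lower. Of 52 tested extracellular matrix genes 20 were called higher and 4 lower (median 0.10), against 0 and 0 in the fit of all 27 libraries. Col8a1 (0.85 ± 0.19, SE) and Thbs1 (0.77 ± 0.09) rose most, the fibrillar collagen Col1a1 stood at 2156 to 2599 CPM in Tg and 1694 to 1976 CPM in Ctl (0.38 ± 0.07), and the fetal fibrillin Fbn2 fell by 0.70. Of 20 complement and coagulation genes 10 were called higher and 0 lower (median 0.35, 4 called higher in the fit of all 27 libraries), among them the C1q genes C1qb and C1qc, which macrophages make. Of 25 interferon-response genes 13 were called higher and 0 lower (median 0.50), with levels near 1 CPM for the leaders Isg15 (1.29 ± 0.25), Ifit1 (1.17 ± 0.35) and Oas2 (0.99 ± 0.24). That count was 7 without Ctl library 2 and 8 without Tg library 1, and 1 in the fit of all 27 libraries, and Ifit1 was not called without either of those libraries. The part of macrophage content in the complement and interferon values was not tested. Of 42 cytosolic ribosomal protein genes 0 were called by edgeR, with 0 at an unadjusted p under 0.05, and 0 by DESeq2 or limma-voom (median -0.01).

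Runs of 3 or more neighbouring called genes of at least 2-fold in a common direction were found at 4 places. Nppb, Nppa and Gm13054, the last on the strand opposite Nppa, were higher in Tg at chr4:147985788-148004014. Pcsk4, Reep6 and Adamtsl5 were higher at chr10:80321283-80348412, with Adamtsl5 at 165, 139, 194 and 167 CPM in Tg, against 71.5, 72.4 and 66.6 CPM in Ctl. The chemokine genes Ccl2, Ccl7 and Ccl12, which attract monocytes, were higher at chr11:82035571-82103400, with Ccl2 at 2.54, 1.61, 3.47 and 1.63 CPM in Tg, against 0.806, 0.894 and 1.44 CPM in Ctl. Ccl2 was not called without Ctl library 1 (0.98) or 2 (1.04), nor Ccl7 without any one of 4 libraries. BC002189, Crh and Gm18864 were lower at chr3:19685971-19709320, with Crh at or under 0.283 CPM in Tg and at or under 1.19 CPM in Ctl. All coordinates are those of GENCODE M21 on GRCm38, and none of these runs lies next to Mbnl1 or Tmprss11d.

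The Tg differences were set beside the course of normal maturation, taken from P60 Ctl against P1 Ctl ventricle, a comparison that shares no library with P7 Tg against P7 Ctl. Of 15420 genes tested there, 11345 were called (73.6%), 2430 of them at least 2-fold higher at P60 (15.8%) and 2484 at least 2-fold lower at P60 (16.1%). Of the 2166 genes higher at P60 that were tested at P7, 31.9% were called higher in Tg and 11.5% lower, with a median log2 fold change of 0.16. Of the 2397 genes lower at P60, 5.97% were called higher in Tg and 36.8% lower, with a median of -0.20. Over all genes tested the shares were 14.9% and 15.8%. Read from the other side, 29.1% of the 2371 genes higher in Tg were higher at P60 and 6.03% lower, and 9.97% of the 2507 genes lower in Tg were higher at P60 and 35.2% lower, against 13.6% and 15.1% of all genes tested.

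**Figure D5:**
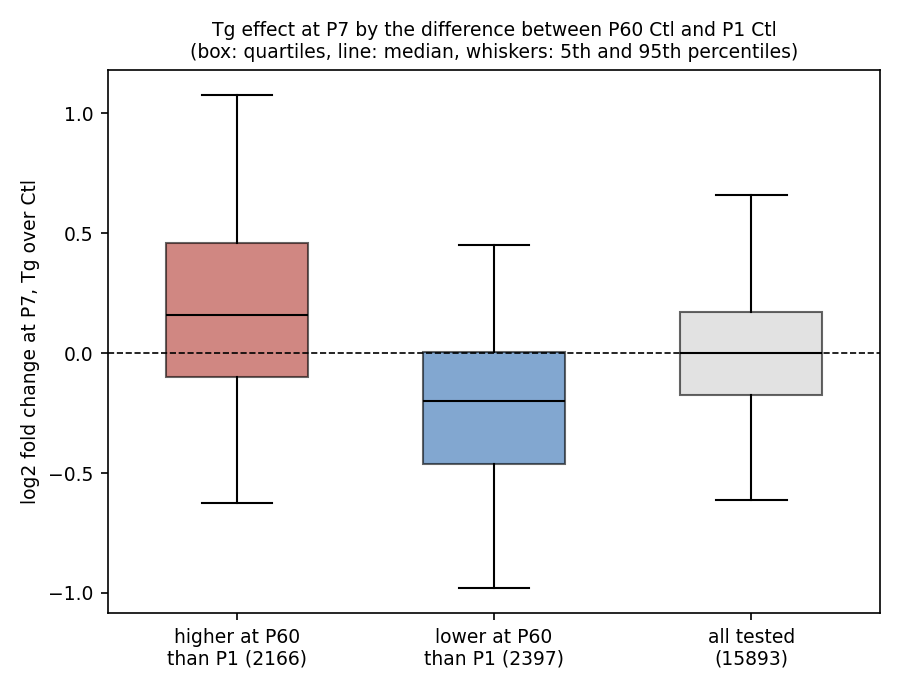
Log2 fold change of Tg over Ctl at P7 for 2166 genes at least 2-fold higher at P60 than P1, 2397 genes at least 2-fold lower at P60 than P1 and all 15893 genes tested. Boxes are quartiles with the median as a line (0.16, -0.20 and 0.00) and whiskers the 5th and 95th percentiles, and the boxes overlap.

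Individual genes went with the normal course, against it or apart from it. The mitotic cyclin Ccna2 stood at 39.0 to 41.6 CPM in Tg and 61.7 to 64.3 CPM in Ctl, and normally falls to 2.98 ± 1.22 CPM at P60 (SD, n = 7), against 96.0 ± 52.6 CPM at P1 (SD, n = 4). Tnni1 and Cacna1g were lower in Tg and are lower at P60 as well. Fuel genes went both ways. Acaa2 and Ppara were lower in Tg and are higher at P60 than at P1 (log2 fold changes of 1.12 and 1.44), whereas Acot1 (-1.92), Acsl3 (-3.52) and Angptl4 (-2.72) were lower in Tg and are lower at P60. The calcium pump Atp2a2 was lower in Tg and is higher at P60 (1.51). Pdk4 and Cebpb were higher in Tg and are higher at P60 (2.71 and 3.13). Mthfd2 and Pycr1 were higher in Tg and are lower at P60 (-1.64 and -1.53). No share here describes a heart as more or less mature as a whole, since each counts genes without weight for their level.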

How the data were processed

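RNA from mouse heart ventricle, extracted with TRIzol and a Qiagen RNeasy kit, was sequenced on a BGI DNBseq platform, per the labels' protocols. The values are the deposited raw gene counts, whole numbers of reads per gene. STAR, featureCounts, DESeq2, Salmon and the mouse build GRCm38 (mm10) are named in the submitters' processing notes, which give neither their roles nor their versions. Whether the counting was stranded is not given there.

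The 4 P7 Tg and 3 P7 Ctl libraries were fitted alone in edgeR 4.0.16 (R 4.3.3) with filterByExpr, TMM scaling and the quasi-likelihood F test. P-values were adjusted by Benjamini and Hochberg over all 15893 genes tested, and genes with an adjusted p under 0.05 were called. Each standard error is the size of the log2 fold change divided by the square root of the F statistic. Levels are CPM (counts per 1000000 counts of the library) after TMM scaling over all 27 libraries. P60 Ctl was tested against P1 Ctl in the same way. The procedure was tested on simulated counts with known changes. DESeq2 1.42.0, limma-voom with limma 3.58.1, other scalings, other filters, a sex covariate, a replicate block, a fit of all 27 libraries and the omission of each library were the alternatives. Gene positions come from GENCODE M21 on GRCm38.

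The comparison and the 57 gene lists (39 pathway lists and 18 marker lists) were chosen with earlier results of these data known, so lists are described by counts and medians and carry no test. Genes named were the MBNL and CELF genes, the 15 largest rises and 15 largest falls among called genes that averaged 5 CPM or more, did not overlap and had an informative symbol, members drawn from up to 3 leading ones of each list and the genes of neighbouring runs. Others, such as further list members, were chosen after their values were seen. Some genes belong to more than a single list and are counted in each. With 24167321 to 24817135 counts in each library, genes under about 1 CPM rest on few reads. A few genes that the naming rule selects are not reported here.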

Additional observations from a re-analysis of the deposited data

Results flagged for a closer look

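The levels of 184 genes and the mitochondrial share of counts were examined, 185 values in all. Of these, 6 gene levels had a single Tg library apart from the other 3 by Dixon's ratio of gap to range. The ratio had to exceed the 95% critical value for 4 libraries. Chance alone flags about 1 in 20 such groups, a larger share than the 6 of 185 found. Tg library 3 was the highest for 5 of them. Col8a1 had a ratio of 0.938, with 10.6, 10.8, 18.95 and 10.2 CPM in Tg, against 7.25, 7.43 and 6.42 CPM in Ctl. Phlda3 had a ratio of 0.904, with 64.4, 65.3, 80.4 and 66.0 CPM in Tg, against 37.8, 35.9 and 40.2 CPM in Ctl. Tubb3 had a ratio of 0.856, with 2.65, 2.30, 4.72 and 2.30 CPM in Tg, against 1.26, 1.65 and 1.72 CPM in Ctl. Gm13054 had a ratio of 0.834, with 0.725, 0.908, 1.82 and 0.742 CPM in Tg, against 0, 0.0688 and 0.456 CPM in Ctl. Wee1 had a ratio of 0.8294, with 25.1, 24.7, 27.3 and 24.8 CPM in Tg, against 38.4, 38.6 and 39.1 CPM in Ctl. Lmod2 had a ratio of 0.838, with Tg library 1 the highest. In all 6 genes every Tg library lay on the same side of every Ctl library.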

How the results depend on the processing

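The number of genes called depended most on which libraries shared the estimate of spread. In the fit of all 27 libraries 973 genes were called, 511 higher and 462 lower in Tg, and 354 at least 2-fold. That fit ended the call of 76 of the 168 called genes named, among them Tnni1, Cdkn1a, Atp2a2, Egr1 and the named mitosis genes. A mean of at least 5 CPM left 147 genes called and at least 2-fold, out of fewer genes tested. Without the 2-fold requirement at P60, 25.4% of the genes higher there were called higher in Tg and 25.2% of the genes lower there were called lower. The count of calls lay between 3717 and 4486 with any one library left out, lowest without Ctl library 2. Scaling by total counts moved the median of all genes to -0.025 and the split of calls to 2081 higher and 2838 lower. Beside the genes given above, DESeq2 did not call Celf5, Acta1, Ccl7 or Gm13054. Deviations of libraries with the same replicate number from their group means correlated at -0.19, -0.08 and 0.02. These values showed no pairing by number, but so few centred values cannot exclude one. A fit with the replicate number as a block called 3830 genes. The log2 fold changes of 3 genes turned in sign, and the cause was not tested except as given for mt-Co2. Trp53 (not called) was -0.0043 with the block, -0.0088 with total count scaling and -0.011 to 0.049 with one library left out. Myh6 (not called) ranged from -0.096 to 0.021 and mt-Co2 from -3.39 to 0.16 with one library left out. Genes under 1 CPM are limited by depth.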

Other observations

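Further lists not described above are given here beside the 14.9% of all genes called higher and 15.8% called lower. Receptors and second-messenger genes of neurohormonal control were called higher in 4 and lower in 8 of 20 tested (1 and 2 in the fit of all 27 libraries). The adrenergic receptor Adra1b stood at 43.3, 36.1, 31.1 and 38.4 CPM in Tg, against 67.2, 62.3 and 66.2 CPM in Ctl (log2 fold change -0.81 ± 0.08, SE). The beta-adrenergic receptor Adrb1 fell by 0.46, the adenosine receptor Adora1 by 0.85 and the adenylyl cyclase Adcy5 by 0.59. The clearance receptor of natriuretic peptides, Npr3, rose by 0.63 ± 0.09 and the vasoconstrictor peptide gene Edn1 by 0.78 ± 0.12. Neither Adra1b nor Npr3 overlapped between the groups.

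Muscle ubiquitin ligases and autophagy genes were divided, with 11 of 27 called higher and 9 lower (3 and 1 in the fit of all 27 libraries). The paralogs of the muscle RING finger family differed in direction. Trim54 stood at 30.6, 26.1, 32.2 and 26.5 CPM in Tg, against 9.92, 10.3 and 9.68 CPM in Ctl (1.54 ± 0.08, SE). Trim55 stood at 129, 127, 123 and 128 CPM in Tg, against 208, 216 and 208 CPM in Ctl (-0.73 ± 0.05). Both paralogs were separate between the groups. Of 18 circadian clock genes 4 were called higher and 3 lower (0 and 1 in the fit of all 27 libraries), shares of 22.2% and 16.7%, near those of all genes. The clock-controlled factor Hlf stood at 16.8, 18.3, 14.8 and 16.5 CPM in Tg, against 35.6, 37.4 and 32.3 CPM in Ctl (-1.08 ± 0.08). Of the intercalated disc, the virus receptor and junction protein Cxadr fell by 0.76 and Nrap rose by 0.48. Fasn, the fatty acid synthase, stood at 73.1, 80.1, 72.8 and 75.6 CPM in Tg, against 139, 139 and 119 CPM in Ctl (-0.81 ± 0.06).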
